A study of Mus musculus with 20 samples.

Results

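Heat shock proteins and J-domain cochaperones were taken as every mouse gene whose symbol begins with Hsp followed by a digit or a letter from a to h, or with Dnaja, Dnajb or Dnajc followed by a digit, and whose mean was at least 1 FPKM (fragments per kilobase of transcript, scaled to the number of mapped fragments) in the table concerned. Of 24413 gene names in the 4 tables of the series, 75 matched these letters and 67 reached that mean in at least 1 table. They comprise 38 J-domain proteins (Hsp40; 4 of class A, 10 of class B and 24 of class C), 14 Hsp70 and Hsp110 proteins, 6 small heat shock proteins, 3 Hsp90 proteins and the 2 subunits of the mitochondrial chaperonin. The letters also caught 4 genes that are not heat shock proteins by function or name, namely Hspg2 (the matrix proteoglycan perlecan), Hspb11 (a ciliary transport protein), Hspbap1 and Hspbp1 (a nucleotide exchange factor of Hsp70). The mean was reached by 66 members in resident macrophages, 58 in infiltrating cells, 65 in injured muscle and 64 in mdx muscle, and 57 reached it in all 4 tables. The 8 symbols below it everywhere were Dnajb3, Dnajb7, Dnajb8, Dnajc5b, Dnajc5g, Dnajc6, Dnajc22 and Hspb9. Near the threshold, Hspa1l lay just inside at 1.32 FPKM and Dnajb13 just outside at 0.888 FPKM in infiltrating cells, and Hspa1a lay inside at 1.19 FPKM and Hspa1b outside at 0.944 FPKM in mdx muscle.

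Hsp70 proteins bind exposed hydrophobic stretches of unfolded proteins in cycles of ATP hydrolysis, which J-domain proteins start by stimulating the ATPase. Hsp90 receives clients from Hsp70 and matures them, and small heat shock proteins hold unfolding proteins in large assemblies without using ATP. In striated muscle the small family is abundant and lies on the Z-disc and on filaments, while the heat-inducible cytosolic members are known as targets of the heat shock factor Hsf1, which binds inverted GAA repeats called heat shock elements.

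The series holds 20 poly(A) RNA-seq libraries. Resident macrophages came from uninjured muscle of male Cx3cr1-GFP mice, in which GFP marks cells expressing the receptor Cx3cr1. They were sorted as CD45+ CD11B+ LY6G- F4/80+ MERTK+ cells into 4 gates with or without MHCII and with or without GFP, with 1 library each. Infiltrating cells were PI- CD45+ CD11B+ LY6G/SIGLECF- GFP+ cells from damaged tibialis anterior (TA) muscles of the WT partner in a female WT/GFP parabiotic pair, so that GFP marks cells that arrived through the shared circulation. They were taken at day 2 (1 library), day 4 (2 libraries) and day 6 (1 library). This gate uses no macrophage-specific marker. Whole TA muscle came from 8-month-old female DMDmdx mice, which lack dystrophin, after 6 months on a diet with 200 mg of PLX73086, an inhibitor of the receptor CSF1R, per kg of food or on the control diet, AIN-76A, with 3 libraries each. Control replicates 1 and 2 and PLX73086 replicate 1 also carried PDGFRaEGFP, and the other 3 did not. Injured TA muscle came from male C57BL/6J mice given either diet for 3 weeks, then regular food for 3 days, then injury. It was taken 12 hours (1 library per diet) or 18 hours (2 libraries per diet) later. Among the muscle libraries used here none is from uninjured mice with dystrophin. The age of the other mice and the means of injury are not stated in the labels, and the labels do not say whether libraries of sorted cells came from separate animals.

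Cell markers were in place in each kind of library. The 12 macrophage genes examined, Csf1r among them at 714 to 947 FPKM in the resident gates, summed to 14277 to 16607 FPKM in resident macrophages and to 10450 to 20952 FPKM in infiltrating cells. Fast fibre genes made up 21.2% to 25.4% of all FPKM in mdx muscle (10 genes with complete values) and 7.68% to 17.8% in injured muscle (12 genes). The number of alignments is listed for infiltrating cells only, from 25953400 to 34655400 per library. Depth is unknown for the other tables, so no counting interval is given.

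The promoters shown here are those of members on which the comparisons below turn: a heat-inducible Hsp70 and Hsp110 in sorted cells, the small heat shock proteins Hspb1 and Hspb8 in muscle, and the endoplasmic reticulum (ER) Hsp70. They come from RefSeq on the GRCm38.p6 build and run from 250 bases before to 50 bases after the annotated start, 5′ to 3′ on the strand of the gene. Capitals mark matches to a heat shock element of 2 units (GAANNTTC or TTCNNGAA) in Hspa1a, Hsph1, Hspb1 and Hspb8, and to the ER stress element (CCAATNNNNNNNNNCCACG, or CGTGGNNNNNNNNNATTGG on the other strand) in Hspa5. Both strands were searched, and a 3-unit heat shock element contains matches to the 2-unit one.
Hspa1a, chr17:34972107-34972406, minus strand: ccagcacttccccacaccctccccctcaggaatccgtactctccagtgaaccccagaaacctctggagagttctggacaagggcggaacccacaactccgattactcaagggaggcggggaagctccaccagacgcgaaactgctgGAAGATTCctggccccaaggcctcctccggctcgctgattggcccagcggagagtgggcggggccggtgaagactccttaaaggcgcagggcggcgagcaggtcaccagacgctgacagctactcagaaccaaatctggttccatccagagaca
Hsph1, chr5:149636266-149636565, minus strand: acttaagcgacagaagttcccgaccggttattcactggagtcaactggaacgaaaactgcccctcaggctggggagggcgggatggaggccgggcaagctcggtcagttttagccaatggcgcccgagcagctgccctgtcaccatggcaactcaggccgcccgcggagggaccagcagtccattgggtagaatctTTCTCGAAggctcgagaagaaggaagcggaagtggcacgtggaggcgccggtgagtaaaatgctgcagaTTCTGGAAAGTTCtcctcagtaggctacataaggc
Hspb1, chr5:135887669-135887968, plus strand: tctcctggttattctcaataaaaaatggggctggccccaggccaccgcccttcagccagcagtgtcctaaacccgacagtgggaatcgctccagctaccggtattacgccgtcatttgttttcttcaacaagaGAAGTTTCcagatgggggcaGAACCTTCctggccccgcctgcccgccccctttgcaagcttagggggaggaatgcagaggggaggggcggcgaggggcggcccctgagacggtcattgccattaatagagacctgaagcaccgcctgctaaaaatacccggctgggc
Hspb8, chr5:116422815-116423114, minus strand: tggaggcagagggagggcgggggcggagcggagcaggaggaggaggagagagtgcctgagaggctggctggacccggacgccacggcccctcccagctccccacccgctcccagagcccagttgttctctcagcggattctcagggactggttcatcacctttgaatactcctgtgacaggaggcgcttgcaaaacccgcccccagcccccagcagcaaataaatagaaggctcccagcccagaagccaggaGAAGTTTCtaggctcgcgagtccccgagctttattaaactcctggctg
Hspa5, chr2:34771840-34772139, plus strand: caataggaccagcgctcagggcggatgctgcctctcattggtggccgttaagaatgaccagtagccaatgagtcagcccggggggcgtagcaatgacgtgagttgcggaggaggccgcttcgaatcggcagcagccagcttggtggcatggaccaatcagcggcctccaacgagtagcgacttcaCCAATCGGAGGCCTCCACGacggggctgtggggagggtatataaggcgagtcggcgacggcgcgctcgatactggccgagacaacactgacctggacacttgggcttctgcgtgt
In Hspa1a the match began 104 bases before the start, and in Hspb1 there were 2 matches, at 117 and 97 bases before it. In Hspb8 the match began 2 bases after the start, in the transcribed part. In Hsph1 a 3-unit element began 15 bases after the start. The 2-unit element was present in 15.1% of all 32851 promoter windows, in 18 of 78 windows of the listed symbols (23.1%), in 4 of 7 windows of small heat shock proteins and in 7 of 12 windows of the 10 heat-inducible cytosolic members named below. The 3-unit element was present in 0.603% of all windows and in 6 of the 78. The ER stress element was present in 0.119% of all windows and in 3 of the 78, those of Hspa5, Hsp90b1 and Dnajc3. The table had windows for 55 of the 67 members and none for Dnajc2, Dnajc5, Dnajc11, Dnajc12, Dnajc18, Dnajc30, Hsp90aa1, Hsp90ab1, Hspa8, Hspa9, Hspa13 and Hspb2. A match is a description of these letters and not evidence of binding.

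The families differed in weight between cells and muscle. All members together took 1.93% to 2.75% of all FPKM in the 4 resident gates, 0.723% to 1.26% in infiltrating cells, 0.609% to 0.849% in mdx muscle and 1.19% to 1.69% in injured muscle. The Hsp70 family made up the largest part in every sorted library, with a summed level of 5894 to 9231 FPKM in resident macrophages and 2144 to 3698 FPKM in infiltrating cells. In muscle the Hsp70 sum was 629 to 819 FPKM (mdx) and 1551 to 2323 FPKM (injured). The small family went the other way, from 4.28 to 14.3 FPKM in infiltrating cells and 339 to 507 FPKM in resident macrophages to 1002 to 2491 FPKM in mdx muscle and 1987 to 6690 FPKM in injured muscle. Of the 6 small members, 5 reached a mean of 1 FPKM in resident macrophages and 3 in infiltrating cells. The sum in resident macrophages was almost all Hspb1, which lay at 329 to 493 FPKM over the 4 gates. The other small members there were low, with means of 8.53 FPKM for Hspb6, 2.04 FPKM for Hspb8 and 1.12 FPKM for Hspb2, and Hspb7 just above the threshold. The Hsp40 sum was 1002 to 1246 FPKM in resident macrophages, 467 to 574 FPKM in infiltrating cells, 1008 to 1126 FPKM in mdx muscle and 1038 to 1441 FPKM in injured muscle. The 4 tables were made separately, so these levels are set side by side without a test.

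**Figure D1:**
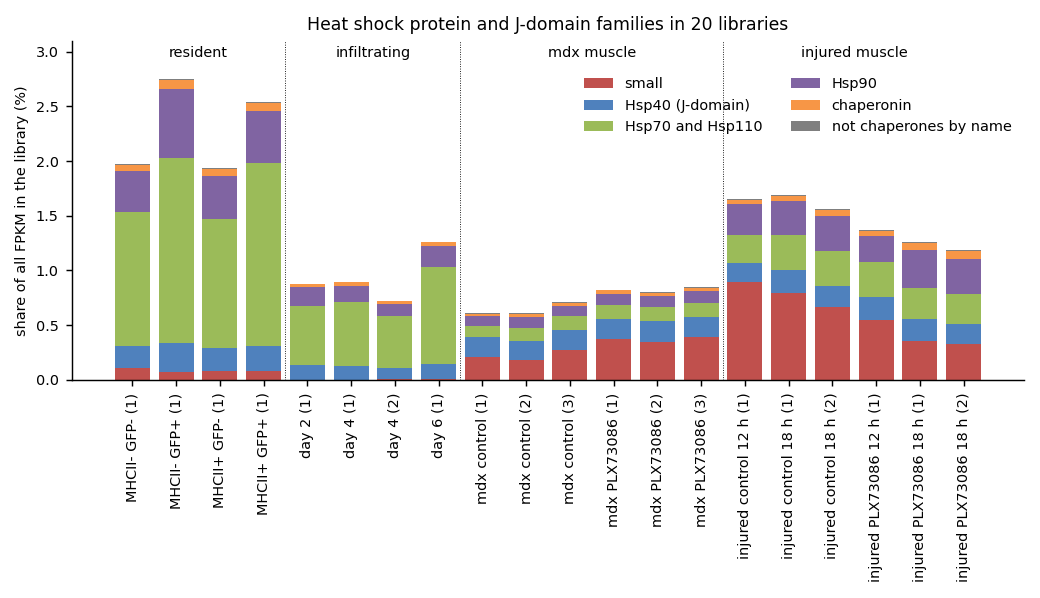
Share of all FPKM (%, y axis) taken by each chaperone family in each of the 20 libraries (x axis, replicate number in brackets), as stacked bars. Hsp70 and Hsp110 fill most of each bar in sorted cells, small heat shock proteins are the largest family in each bar from injured control muscle, and the total runs from 0.609% to 2.75%.

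In resident macrophages the 6 highest members were cytosolic or ER chaperones. Hspa8, the constitutive cytosolic Hsp70, averaged 2864 FPKM over the 4 gates. The heat-inducible pair Hspa1a and Hspa1b averaged 1681 and 1574 FPKM, followed by the cytosolic Hsp90 proteins Hsp90ab1 (1003 FPKM) and Hsp90aa1 (999 FPKM) and by Hspa5, the ER Hsp70 also called BiP (740 FPKM). Hspa1a and Hspa1b are near-identical copies whose promoters were the same at 296 of 300 bases, so the division of reads between them is uncertain. Among J-domain partners of cytosolic Hsp70, Dnajb1 averaged 161 FPKM and Dnaja1 149 FPKM. Immediate early genes were high in the same libraries, with 12 genes summing to 11804 to 18316 FPKM. Per the labels, tissue was digested at 37 °C before sorting, and the part of that handling in these levels was not tested.

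With 1 library per gate, gates were compared by size alone: a member counted as different when FPKM + 1 differed at least 2-fold in both pairs of gates that differ only in the marker. No member passed for MHCII in either direction, beside 0.691% of 11872 genes in either direction and 0.0758% downward. The largest mean differences on the log2(FPKM + 1) scale between MHCII+ and MHCII- gates were 0.46 for Dnajb1, 0.45 for Hspe1 (the chaperonin cochaperone), 0.39 for Dnajc15 (a mitochondrial import protein), 0.31 for Hspb7 and 0.27 for Hspa5. In the other direction they were -0.42 for Hspa4l (an Hsp110 protein), -0.41 for Hspb11, -0.40 for Dnajc1 (an ER J protein), -0.39 for Hspa13 (a microsomal Hsp70) and -0.36 for Dnajc28. Hspb7 was at 0.615 and 0.956 FPKM in the MHCII- gates, so it passed the filter on low values through the MHCII+ gates alone. In the same contrast 9 of 12 immediate early genes (median 0.39) and 9 of 11 fast fibre genes (median 0.36) were higher in both pairs. Over all genes this held for 2885 of 11872. The part of immediate early and fibre genes in these differences was not tested.

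No member passed for GFP either, beside 0.606% of genes in either direction and 0.177% downward, and the heat-inducible cytosolic members had mostly higher values in GFP+ gates. Hsph1, the Hsp110 nucleotide exchange factor of Hsp70, was at 134 FPKM in the MHCII- GFP- gate, 149 FPKM in MHCII+ GFP-, 260 FPKM in MHCII+ GFP+ and 289 FPKM in MHCII- GFP+. Hsp90aa1, the inducible Hsp90, was at 655, 747, 1092 and 1503 FPKM in the same order, and Hspa8 was at 2057, 2353, 3569 and 3476 FPKM. For all 3 genes both GFP+ gates lay above both GFP- gates. The same order held for Hspa1b, Hsp90ab1, Dnaja1, Dnajb1 and Dnajb4, and its share over all genes was not counted. The ratios of GFP+ to GFP- within MHCII+ and within MHCII- cells were 1.75 and 2.16 for Hsph1, 1.46 and 2.29 for Hsp90aa1, 1.52 and 1.69 for Hspa8, 1.42 and 1.81 for Dnaja1, and 1.18 and 2.11 for Dnajb4.

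Of the 10 heat-inducible cytosolic members (Hspa1a, Hspa1b, Hspa8, Hsph1, Hsp90aa1, Hsp90ab1, Hspb1, Dnaja1, Dnajb1 and Dnajb4), 8 were higher in GFP+ cells in both pairs, and their median difference was 0.56 (log2), beside 0.00 over all genes. Over all genes 3378 of 11872 were higher in both pairs. The list also takes in Hspa8, the constitutive Hsp70, and Hsp90ab1, the cytosolic Hsp90 beside the inducible Hsp90aa1. Hspb1, the small heat shock protein also called Hsp27, was 1.20 times its GFP- level in MHCII+ cells and 0.667 times in MHCII- cells, so its pairs went opposite ways. Hspa1a was the other exception, at 1346 (GFP-) and 2176 FPKM (GFP+) in MHCII+ cells but 1606 and 1596 FPKM in MHCII- cells. Hspa1b was at 1303 and 2107 FPKM, then 1425 and 1463 FPKM, in the same order. The 8 ER members had a median of 0.36, with 5 higher in both pairs, and Hspa5 had ratios of 1.43 and 1.62. The largest differences downward were -0.84 for Hspb2, -0.63 for Hspa12a, -0.55 for Hspg2, -0.44 for Dnajc30 and -0.42 for Hspb8, and of these Hspb2 and Hspb8 lay at 0.466 to 2.80 FPKM. Hspb2 was at 0.466 and 0.559 FPKM in the GFP+ gates, so it passed the filter on low values through the GFP- gates alone. In the same contrast 9 of 11 fast fibre genes were lower in GFP+ cells in both pairs, with a median of -0.36, and their summed level lay between 159 and 263 FPKM over the gates. Of the 12 immediate early genes 3 were higher in both pairs, and of 7 neutrophil genes 2 passed the 2-fold rule upward. The part of fibre RNA or of stress during sorting in these differences was not tested.

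**Figure D2:**
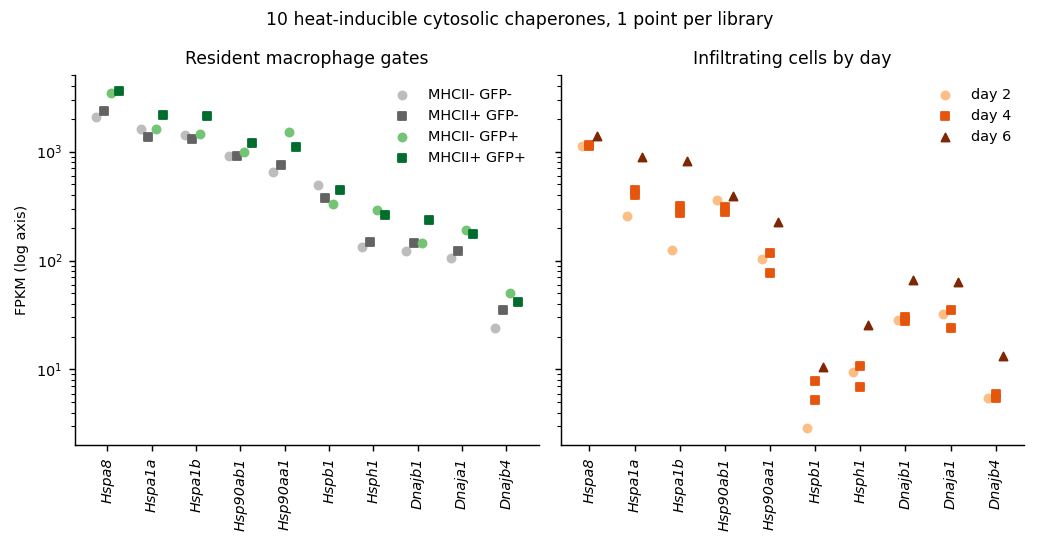
FPKM (log axis) of 10 heat-inducible cytosolic chaperones in the 4 resident macrophage gates (left) and in infiltrating cells by day (right), with 1 point per library. Green GFP+ points lie above grey GFP- points for every gene but Hspa1a and Hspb1, and each day 6 triangle lies above the 2 day 4 squares.

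In infiltrating cells Hspa8 was again the highest member (1201 FPKM on average), followed by Hspa1a (500 FPKM), Hspa5 (427 FPKM), Hspa1b (381 FPKM), Hsp90ab1 (334 FPKM) and Hsp90b1, the ER Hsp90 (161 FPKM). From day 2 to day 4 only Hspa1b changed at least 2-fold in both pairs of libraries (1 of 58 members), beside 6.7% of 9805 genes in either direction, 3.91% upward and 2.79% downward. It was at 126 FPKM at day 2 and at 316 and 272 FPKM at day 4. Hspa1a, its near copy, went from 258 FPKM to 442 and 401 FPKM. Both day 4 libraries lay above the day 2 library for each gene, as they did for 3854 of 9805 genes. Hspa1b was 0.488 of Hspa1a at day 2 against 0.715 and 0.679 at day 4. Other large differences upward were in members of low level: Hspb8 from 0.411 FPKM to 1.57 and 2.59 FPKM, Dnajc12 from 1.72 FPKM to 4.49 and 4.38 FPKM, Hspb1 from 2.92 FPKM to 5.28 and 7.88 FPKM, and Dnajc9, a histone chaperone, from 4.91 FPKM to 9.04 and 8.45 FPKM. Hspb8 passed the filter on low values through the later libraries alone.

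Members of the ER were among those with lower values at day 4 than at day 2, none of them past the 2-fold rule in both pairs. Dnajb11, an ER J protein that works with Hspa5, was at 51.5 FPKM at day 2 and 32 and 27.3 FPKM at day 4. Hspa5 was at 549 FPKM and then 381 and 287 FPKM, and Hsp90b1 at 202 FPKM and then 155 and 123 FPKM. In each case day 2 lay above both day 4 libraries. Hspbp1 (mean difference -0.69) and Dnajc15 (-0.68) were the other large differences downward. Of the 8 ER members 4 were lower in both pairs and 1, Dnajc10, was higher in both. Over all genes 4021 of 9805 were lower in both pairs. The median of the 8 was -0.26 (log2), beside -0.03 over all genes. Macrophage genes were mostly higher at day 4, with 3 of 12 past the rule and a median of 0.80, and their part in these differences was not tested.

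From day 4 to day 6 the heat-inducible cytosolic members had higher values. At least a 2-fold difference in both pairs was found for 5 members, Hspa1a, Hspa1b, Hsph1, Dnajb1 and Dnajb4, and for none downward, beside 0.877% of genes in either direction and 0.775% upward. Hspa1b was at 811 FPKM at day 6 and Hspa1a at 900 FPKM, against the day 4 values above. Hsph1 was at 25.7 FPKM, after 10.9 and 6.88 FPKM at day 4 and 9.53 FPKM at day 2. Dnajb1, the main J-domain partner of inducible Hsp70, was at 66.2 FPKM, after 30.3 and 27.6 FPKM at day 4 and 28.3 FPKM at day 2. For these genes the day 6 library was the highest of the 4. Dnajb4 was at 13.4 FPKM after 5.45 and 5.95 FPKM. Hsp90aa1 was at 225 FPKM after 118 and 76.3 FPKM and missed the rule in 1 pair, with ratios of 1.91 and 2.95. All 10 heat-inducible members were higher in both pairs, with a median difference of 1.10 (log2), beside 0.01 over all genes. Both pairs share the day 6 library, and 2925 of 9805 genes were higher in both. The largest differences downward were small: Hspb8 (-0.38), Hspb11 (-0.32), Dnajc15 (-0.26), Dnajc11 (-0.24) and Dnajc18 (-0.20).

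Day 6 and day 2 are single libraries, so the differences between days have no replicate check beyond the day 4 pair. The titles carry 200k at day 2, 50k and 60k at day 4 and 15k at day 6, a label the sources used here do not explain, and this amount and the day cannot be told apart. The summed FPKM of 12 fast fibre genes was 14.6 at day 2, 77.9 and 107 at day 4 and 188 at day 6. Cryab, an abundant small heat shock protein of muscle, was at 1.54 FPKM at day 2, 3.53 and 2.60 FPKM at day 4 and 4.40 FPKM at day 6. The part of fibre RNA in the chaperone differences was not tested. The immediate early sum was 8548 to 9847 FPKM, and 9 of its 12 genes were higher at day 6 than in both day 4 libraries, with a median of 0.17.

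In mdx muscle the highest members were Hspb6, the small heat shock protein Hsp20 (870 FPKM on average), Hsp90ab1 (528 FPKM), Hspb8, which works with the cochaperone Bag3 in clearing damaged filament proteins (380 FPKM), Hspa8 (276 FPKM), Hspa9, the mitochondrial Hsp70 (247 FPKM), and Hspb7, a filamin-binding small heat shock protein (216 FPKM). Dnaja2 (110 FPKM) and Dnajb5 (108 FPKM) led the J-domain proteins. The heat-inducible genes that led the sorted cells were low here, with Hspa1a at 0.635 to 2.19 FPKM and Dnajb1 at 1.77 to 3.03 FPKM.

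After 6 months of diet no member was past an adjusted p of 0.05 in limma (a linear model fitted across all genes on log2(FPKM + 1), with Benjamini-Hochberg adjustment), beside 0.157% of 10197 genes in either direction, 0.127% higher and 0.0294% lower. At an unadjusted limma p under 0.05 there were 11 of 64 members, beside 1648 of 10197 genes. All 6 small heat shock proteins had higher means with PLX73086, with a median difference of 0.70 (log2) beside 0.00 over all genes. Hspb7 was at 81.0, 55.1 and 203 FPKM in control replicates 1 to 3 and at 296, 278 and 383 FPKM with PLX73086. Hspb1 was at 78.3, 72.3 and 126 FPKM in controls and 165, 159 and 201 FPKM with PLX73086. Hspb8 was at 331, 277 and 295 FPKM in controls and 471, 407 and 500 FPKM with PLX73086. The groups did not overlap for any of the 3.

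Hspb6 was at 612, 452 and 878 FPKM in controls and 1135, 968 and 1173 FPKM with PLX73086, and Hspb2 at 112, 102 and 118 FPKM against 121, 129 and 163 FPKM, both also without overlap. Hspb3 was at 53.7, 44.9 and 51.5 FPKM against 46.7, 58.5 and 71.8 FPKM, and its groups overlapped. The differences were 1.69 for Hspb7 (SE 0.43, limma adjusted p = 0.153), 0.95 for Hspb1 (SE 0.21, limma adjusted p = 0.126), 0.80 for Hspb6 (SE 0.23, limma adjusted p = 0.182) and 0.61 for Hspb8 (SE 0.11, limma adjusted p = 0.0979). Leaving out control replicate 3, which had the highest control value of Hspb1, Hspb6 and Hspb7, put these 3 members past the threshold. That library was also the only control without PDGFRaEGFP, and of the PLX73086 libraries only replicate 1 carried it. With this genotype as a term in the fit of all mdx libraries, no member was called. Its part in the 3 calls made without control replicate 3 was not tested. In whole muscle, fewer cells of a type and less RNA per cell cannot be told apart.

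Every PLX73086 library lay above every control for 13 members, beside 11.4% of genes, and below for 5 members, beside 11.6%. Among the 13 were 5 small heat shock proteins, the J-domain proteins Dnajb4, Dnajb11, Dnajc4, Dnajc7 and Dnajc25, Hspa1a, Hspa2 and Hsp90ab1. Dnajb4, which has a known place in muscle protein quality control, was at 31.1, 24.6 and 29.5 FPKM in controls and 39.8, 41.9 and 44.9 FPKM with PLX73086, a difference of 0.56 (SE 0.11, limma adjusted p = 0.102). Hspa1a had a difference of 0.66 (limma adjusted p = 0.189), but its controls were all below 1 FPKM (0.635 to 0.702 FPKM), so it passed the filter on low values through the PLX73086 libraries alone. The 5 largest differences downward were small: -0.26 for Dnajb9 (an ER J protein), -0.24 for Dnajb5, -0.21 for Dnajb12, -0.18 for Dnaja2 and -0.17 for Dnajc10 (an ER J protein with reductase domains). The family medians were 0.05 for Hsp40, 0.17 for Hsp70 and 0.09 for Hsp90.

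Of 35 other genes of the chaperone pathway (Hsf1 and Hsf2, Bag proteins, Hsp90 cochaperones, the cytosolic chaperonin Cct and others), none passed in mdx muscle and 21 had higher means. Cryab, the small heat shock protein alpha B-crystallin, which the symbol rule does not catch, was at 608, 495 and 1089 FPKM in controls and 1658, 1247 and 1642 FPKM with PLX73086 (difference 1.12, limma adjusted p = 0.15). Its groups did not overlap. Summed fast fibre genes, 10 with complete values, were at 142867 to 147032 FPKM in controls and 121524 to 139209 FPKM with PLX73086. Of the 10, 8 had lower means with PLX73086 and 2 higher. Myh1 was among the higher, at 1300, 859 and 1445 FPKM in controls and 3324, 1824 and 2383 FPKM with PLX73086. The sum of the 6 small heat shock proteins per 1000 FPKM of fast fibre genes was 8.63, 7.01 and 11.5 in controls and 17.6, 16.4 and 17.9 with PLX73086. These ranges had to lie apart, since every PLX73086 library had a small sum above all controls and a fibre sum below them. The ratio was chosen after the values were seen, and the part of fibre content was not tested. Control replicate 2 stood apart in its macrophage genes, which summed to 734 FPKM against 89.2 to 218 FPKM in the other 5 libraries. Without it no member passed either. With PLX73086 immediate early genes (median 0.68), slow fibre genes (median 0.64) and fibroadipogenic progenitor genes (7 of 8, median 0.50) had mostly higher means, and macrophage genes mostly lower ones (10 of 11, median -0.98). None of these genes was called, and their part was not tested.

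**Figure D3:**
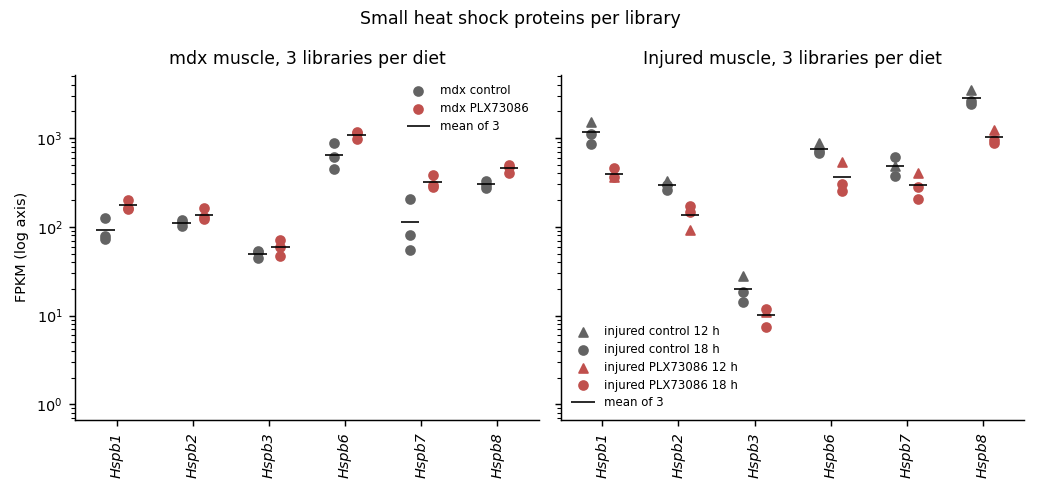
FPKM (log axis) of the 6 small heat shock proteins in each mdx library (left) and each injured muscle library (right), grey for control and red for PLX73086, with a line at the mean of 3 libraries per diet. Red lies above grey on the left without overlap except for Hspb3, and below grey on the right without overlap except for Hspb7.

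In injured muscle the highest members were Hspb8 (1921 FPKM on average), Hsp90ab1 (1400 FPKM), Hspa8 (794 FPKM), Hspb1 (776 FPKM), Hspb6 (562 FPKM) and Hspa5 (551 FPKM). Muscle from mice fed PLX73086 before injury had lower levels of 9 of 65 members and higher levels of none at a limma adjusted p under 0.05, in a fit with a term for the hour. Over 11578 genes 11.7% were called in either direction, 6.23% lower and 5.42% higher. Of the 9 members, 5 were small heat shock proteins, 3 were J-domain proteins and 1 was an Hsp70, so the small family had 5 of its 6 members called, the Hsp40 family 3 of 37, the Hsp70 family 1 of 13, and Hsp90 and the chaperonin none. The calls rest on a spread that limma pools over genes.

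Hspb8 (chr5:116408491-116422864, minus strand, GRCm38.p6) was at 3453 FPKM in the control library at 12 h and at 2603 and 2423 FPKM in those at 18 h, and at 1237 FPKM at 12 h and 941 and 869 FPKM at 18 h after PLX73086. The mean fell from 2826 ± 550 to 1016 ± 195 FPKM (SD, n = 3), a change of -1.48 (SE 0.20, limma adjusted p = 0.0166). Hspb1 (chr5:135887919-135889563, plus strand) was at 1502 FPKM at 12 h and 864 and 1100 FPKM at 18 h in controls, and at 365, 363 and 462 FPKM after PLX73086, a change of -1.51 (SE 0.25, limma adjusted p = 0.0202). The groups of both genes were apart, with the 12 h control the highest library.

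Hspb6 was at 889, 714 and 675 FPKM in controls (12 h first) and 543, 251 and 300 FPKM after PLX73086, a change of -1.13 (SE 0.21, limma adjusted p = 0.0246). Hspb2 was at 331, 262 and 296 FPKM and then 92.1, 146 and 170 FPKM, a change of -1.16 (SE 0.24, limma adjusted p = 0.0306). Hspb3, which forms a complex with Hspb2, was at 27.8, 18.5 and 14.1 FPKM and then 11, 7.44 and 11.9 FPKM, a change of -0.90 (SE 0.22, limma adjusted p = 0.0456). None of these groups overlapped. Hspb2 shares its locus in the deposited table with Cryab, so reads of the pair may not be fully separated. Hspb7 was at 487, 610 and 370 FPKM in controls and 402, 279 and 206 FPKM after PLX73086, which overlap, and did not pass (-0.75, SE 0.27, limma adjusted p = 0.12).

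Among J-domain proteins, Dnajb2, a muscle and nerve cochaperone that delivers clients to the proteasome, was at 99.9, 80.2 and 79.8 FPKM in controls (12 h first) and 43.7, 47.8 and 41.4 FPKM after PLX73086. Its mean fell from 86.6 ± 11.5 to 44.3 ± 3.26 FPKM (SD, n = 3), a change of -0.95 (SE 0.14, limma adjusted p = 0.0183). Dnajb5, a cytosolic class B protein, was at 54.5, 27.5 and 20.3 FPKM and then 25.3, 9.86 and 8.75 FPKM, a change of -1.20 (SE 0.15, limma adjusted p = 0.0154). Its groups overlapped across hours but not within an hour. Dnaja4, a class A protein, was at 43.8, 39.7 and 34.2 FPKM and then 32.7, 12.8 and 8.51 FPKM (-1.29, SE 0.29, limma adjusted p = 0.0394).

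Dnajb9, the ER J protein ERdj4, was at 114, 214 and 209 FPKM in controls and 85.7, 95.4 and 51.4 FPKM after PLX73086, without overlap, and just missed the threshold (-1.19, limma adjusted p = 0.0580). Dnajb4 was at 49.7, 69.4 and 65.1 FPKM and then 52.6, 34.3 and 29.7 FPKM (-0.67, limma adjusted p = 0.117). The largest differences upward were not called: 0.49 for Hspa1b (limma adjusted p = 0.642), 0.46 for Dnajc10 (limma adjusted p = 0.0567), 0.39 for Dnajc24, a protein of diphthamide synthesis (limma adjusted p = 0.0890), 0.36 for Dnajc16 and 0.35 for Dnajc9. Dnajc10 was at 11.1, 11.5 and 12.8 FPKM in controls and 17.2, 16 and 16.5 FPKM after PLX73086, without overlap.

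Of the Hsp70 family, Hspa1l passed. It lies beside Hspa1a on chromosome 17 and is known mainly from testis, and it was at 6.81, 7.94 and 7.69 FPKM in controls and 5.68, 1.98 and 2.03 FPKM after PLX73086 (-1.11, SE 0.27, limma adjusted p = 0.0448). Hspa9 was at 335, 382 and 379 FPKM and then 262, 242 and 211 FPKM, without overlap (-0.62, limma adjusted p = 0.0625). Hspa8 had a difference of -0.37 (limma adjusted p = 0.256), Hspa5 of -0.36 (limma adjusted p = 0.223) and Hsp90ab1 of -0.50 (limma adjusted p = 0.204). Hspa1a and Hspa1b followed the first figures of the sample titles more than the diet. The titles begin with 178 or 180, and Hspa1a was at 25.0 and 16.8 FPKM in the control and the PLX73086 library with 178 and at 4.12 to 10.5 FPKM in the 4 with 180. What these figures mean is not stated in the sources used here.

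Every PLX73086 library lay below every control for 16 members (16.3% of genes did so) and above for 2 members (14.1% of genes). Within each hour this held for 21 members downward, all 6 small heat shock proteins among them (23.3% of genes), and for 4 upward (20.3% of genes). The 35 other genes of the pathway had lower means in 31 cases. Those called were Unc45b, the myosin chaperone (-1.15, limma adjusted p = 0.0176), Bag3, the partner of Hspb8 (-0.95, limma adjusted p = 0.0183), and Grpel2, a mitochondrial nucleotide exchange factor (-0.57, limma adjusted p = 0.0442). Cryab was at 11178, 9678 and 10792 FPKM in controls and 3003, 5698 and 5510 FPKM after PLX73086, without overlap (-1.21, limma adjusted p = 0.0561).

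Fibre genes moved with the small heat shock proteins in injured muscle. The 12 fast fibre genes summed to 97354 to 133465 FPKM in controls and to 43099 to 58967 FPKM after PLX73086, and 8 of 12 were called lower, with a median of -1.14, beside -1.14 in the small family and -0.02 over all genes. Per 1000 FPKM of the 10 fast fibre genes also measured in mdx muscle, the 6 small heat shock proteins summed to 54.2, 56.8 and 42.1 in controls (12 h first) and to 62.2, 50.01 and 37.2 after PLX73086, and these ranges overlapped. This ratio was chosen after the values were seen. Macrophage genes were higher after PLX73086, with 5 of 12 called, and neutrophil genes with 2 of 8 called. Fibroadipogenic progenitor genes had higher means in 8 of 8 cases, with 1 called. Immediate early genes had lower means in 9 of 12 cases (3 called, median -0.64) and satellite cell genes in 3 of 4 (1 called, median -0.80). The part of these genes and their cells in the chaperone differences was not tested.

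**Figure D4:**
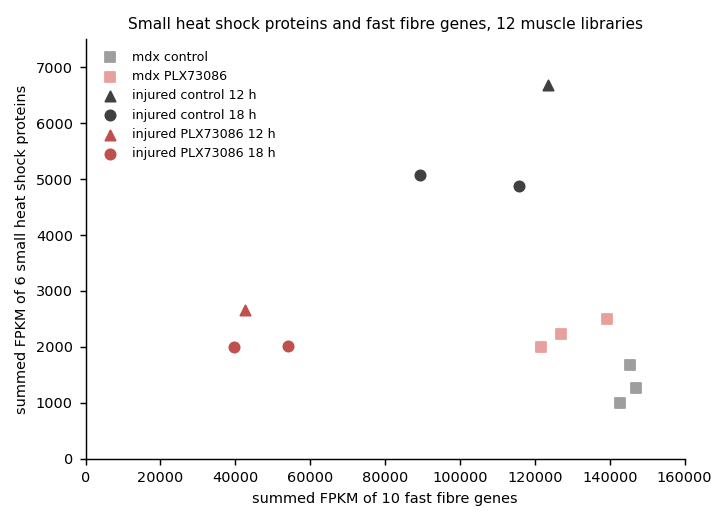
Summed FPKM of the 6 small heat shock proteins (y axis) against the summed FPKM of 10 fast fibre genes (x axis) in the 12 muscle libraries, with 1 point per library. In injured muscle the PLX73086 points are lower on both axes, and in mdx muscle they are higher on the y axis and lower on the x axis.

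The calls depended on single libraries and on settings of the fit. The count of members called lower was 0 without the first 18 h control, without the second 18 h control or without the first 18 h PLX73086 library, and 1 (Hspb1) without the second 18 h PLX73086 library. In the 18 h libraries alone the count was 14. Leaving out either 12 h library gave the same diet differences, since the hour term then fits the remaining 12 h library exactly. None of the 9 members changed sign in any of these fits. With no filter on low values Dnajb2 and Dnajb5 kept their calls, and without the term for the hour Dnajb2, Hspb1 and Hspb8 did, while the other called members lost theirs. With a block on the first figures of the titles only Hspb1, Hspb8, Dnajb2 and Dnajb5 kept their calls.

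**Figure D5:**
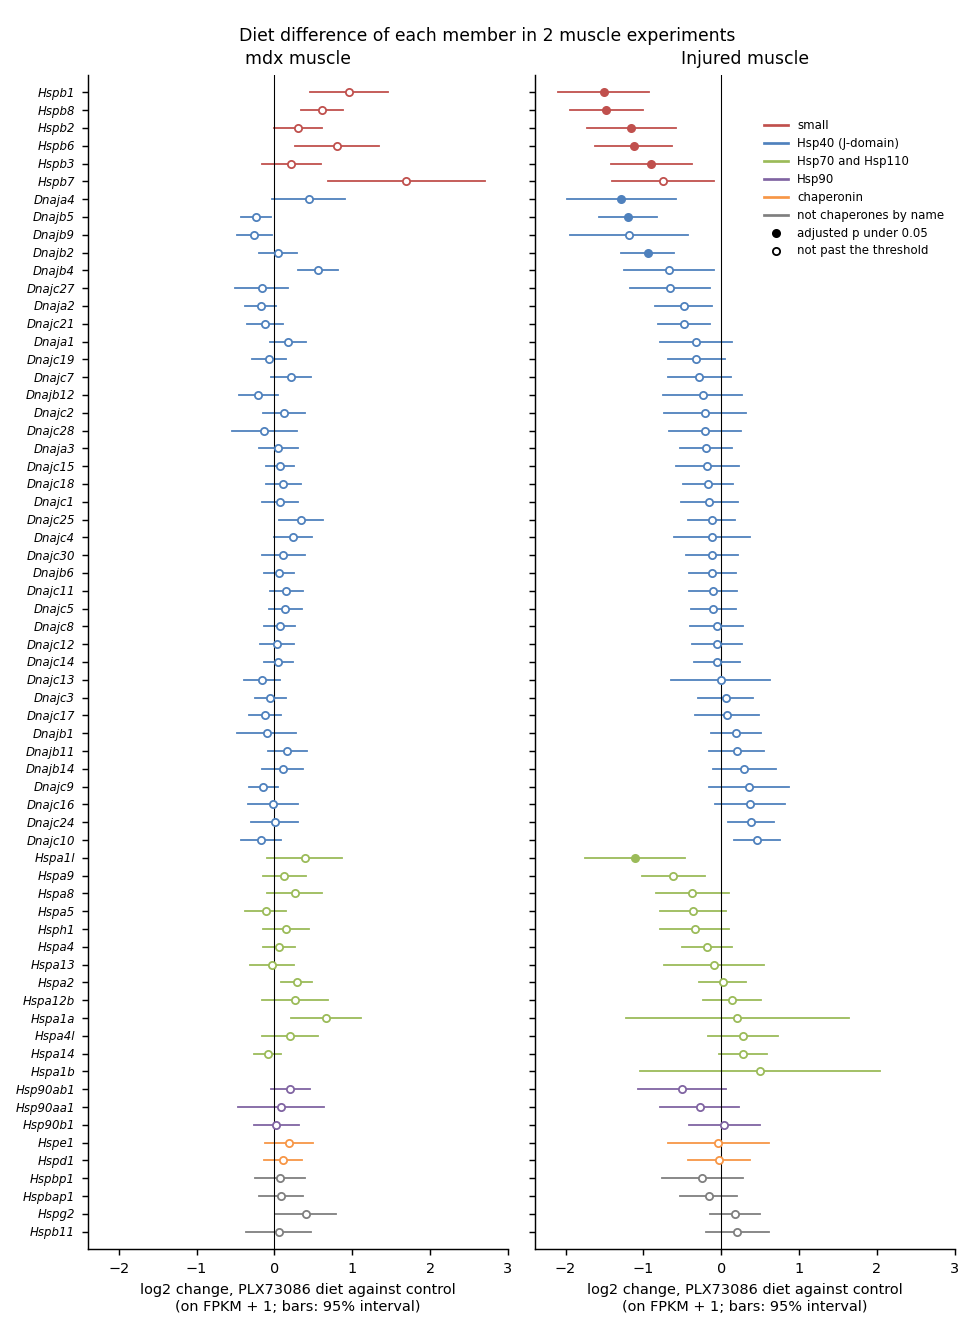
Difference between PLX73086 and control diets (log2 on FPKM + 1, x axis; point and 95% interval) for each member in mdx muscle (left) and injured muscle (right), coloured by family. Filled points, adjusted p under 0.05, are found in injured muscle only: Hspb1, Hspb8, Hspb2, Hspb6, Hspb3, Dnaja4, Dnajb5, Dnajb2 and Hspa1l.

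Between 12 h and 18 h after injury no member was called, beside 0.0777% of genes in either direction, 0.00864% higher and 0.0691% lower. An unadjusted limma p under 0.05 was found for 12 of 65 members, beside 2279 of 11578 genes. Dnajb5 came nearest, with 54.5 and 25.3 FPKM at 12 h (control and PLX73086) against 27.5, 20.3, 9.86 and 8.75 FPKM at 18 h (-1.26, SE 0.16, limma adjusted p = 0.0660). Other differences downward were -0.90 for Dnaja4, -0.72 for Hspa12b, -0.67 for Hspb6 and -0.58 for Hspa2, and in the table Hspa12b shares its locus with 12 other genes. The differences upward were 0.70 for Dnajc9, 0.67 for Dnajc2, which assists folding at the ribosome, 0.62 for Hspb11, 0.61 for Hsp90b1 and 0.50 for Hspe1. With 1 library per diet at 12 h, the count depended on the 12 h control: without it 6 members were called higher and 6 lower. Without the first 18 h control Dnajb5 alone was called. Immediate early genes were lower at 18 h in 11 of 12 cases, with a median of -1.04, and their part was not tested.

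No member was called for the diet by hour term, which asks whether the diet difference at 18 h differs from that at 12 h, beside 0.0605% of genes in either direction, 0.0432% positive and 0.0173% negative. An unadjusted limma p under 0.05 was found for 12 of 65 members, beside 2701 of 11578 genes. The most negative values were -1.33 for Hspa1l (limma adjusted p = 0.0949), -1.31 for Dnaja4, -1.30 for Hspa13, -1.17 for Dnajb9 and -1.13 for Dnajb4. Hspa1l was at 5.68 FPKM after PLX73086 and 6.81 FPKM in the control at 12 h, and at 1.98 and 2.03 FPKM against 7.94 and 7.69 FPKM at 18 h. The most positive values were 1.02 for Hspb2, 0.97 for Hspbp1, 0.89 for Hspe1, 0.88 for Dnajc2 and 0.79 for Hspb1.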

How the data were processed

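The deposited values are FPKM per gene in 4 tables made by the authors; per the submitters' processing notes the tools were bcl2fastq, Bowtie, STAR and Cufflinks with the mm10 build, with no role or version named. Per the labels, libraries came from a stranded mRNA kit. Rows with 50 date-like gene names were left out. FPKM is bounded below at 0.01 in 3 tables, and depth is listed for infiltrating cells only.

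For muscle, genes averaging 1 FPKM or more were fitted on log2(FPKM + 1) by limma 3.58.1 under R 4.3.3, using a mean-variance trend and Benjamini-Hochberg adjustment over all genes tested and a threshold of 0.05; fold changes on this scale understate low genes. The 4 fits were diet in mdx muscle, and diet, hour and diet by hour in injured muscle. Each muscle library is from a TA, and p-values rest on the spread between these samples, which limma pools over genes. At 12 h each diet has 1 library, so the spread within a diet is not measured at that hour. Sorted cells were compared by at least a 2-fold difference of FPKM + 1 in both pairs of libraries, without a test. Calculations used Python 3.11.15, numpy 2.4.6, pandas 2.3.3 and matplotlib 3.10.9. The fitting code was tested on simulated data.

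The members and lists were chosen with earlier results of these data known. Named are members past a threshold, the 5 largest differences each way, the 6 highest in each table and a fixed set of main chaperones; named genes of other lists are those called, and Cryab, which was chosen after its values were seen. Alternatives were other pseudocounts, filters, scalings, variance settings, covariates, a replicate block and leaving out each library. Protein sequences were planned and not used here.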

Additional observations from a re-analysis of the deposited data

Results flagged for a closer look

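For 8 members every PLX73086 library moved one way from the controls in mdx muscle and the opposite way within each hour in injured muscle. The difference between the experiments was not tested, since the tables were made separately and the mice differed in strain, sex, diet time and injury. In mdx and injured muscle respectively, the log2 differences were 0.95 and -1.51 for Hspb1, 0.61 and -1.48 for Hspb8, and 0.80 and -1.13 for Hspb6. For Hspb2 they were 0.30 and -1.16, and for Hspb7 1.69 and -0.75. Outside the small family they were 0.20 and -0.50 for Hsp90ab1, and 0.21 and -0.28 for Dnajc7. Hspa14, a ribosome-associated Hsp70, went the other way, with -0.086 and 0.28. The upward then downward pattern was found in 341 of 9786 genes in both tables (3.48%) and in 7 members, and the reverse in 152 genes (1.55%) and 1 member.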

How the results depend on the processing

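In injured muscle the count of members called lower was 9, and it was 2 with no filter on low values, 3 without the hour as a term, 14 in the 18 h libraries alone and 0 to 14 when each library was left out. With the replicate block (first figures of the title) it was 4, namely Hspb1, Hspb8, Dnajb2 and Dnajb5, whereas in mdx muscle the block changed no call. Whether these figures pair the samples is not settled by the check made. In mdx muscle the deviations of libraries with the same figures correlated at 0.287, 0.355 and 0.0593, each library correlating best with its own figures. At 18 h in injured muscle, 2 libraries per diet give deviations that mirror each other. There 0.275 for pairs with the same figures and -0.275 for crossed pairs are a single value. With a mean of at least 5 FPKM 1 member was called higher after PLX73086 (Dnajc10) and 1 lower at 18 h (Dnajb5). Leaving out each library gave 0 to 6 members higher and 0 to 6 lower at 18 h, and 0 to 3 higher in mdx muscle. In GFP+ gates 1 member, Hspb2, was lower with a pseudocount of 0.1, and with a 1.5-fold rule Hspb2 was again the 1 lower and 2 were higher. From day 2 to day 4 the count of 1 higher became 3 with a pseudocount of 0.1 and 6 with a 1.5-fold rule, with 1 lower, and it was 2 to 3 when a day 4 library was left out. Hspa1b in injured muscle, not called, was -0.19 without the first 18 h control and ranged up to 1.24 when each library was left out. The cause of these shifts was not tested, apart from the smaller number of samples or genes in some fits. The 9 called members had log2 values of -1.72 to -0.72 over 15 alternatives, none of them turned. Among these alternatives, the 18 h libraries alone and the fits without a 12 h library gave the same values. The diet by hour term could not be fitted with a 12 h library left out. Unknown depth in 3 tables leaves the counting error of low members unknown.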
